A study of Mus musculus with 2 samples.

Results

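The 10 genes described here mark the fetal liver and the bile duct lineage: Spp1, Gpc3, Sox9, Afp, H19, Igf2, Mdk, Cd24a, Peg3 and Sox4. They were taken by name from the 31053 genes of a single-cell RNA-seq table of perfused mouse hepatocytes. All 10 were in the table, 9 had at least 1 UMI (unique molecular identifier, 1 captured transcript), and 7 had at least 10. The study asked how hepatocytes change when an activated YAP is switched on. The control library was labelled LaptTA;WT, from a mouse that carried the tetracycline transactivator under a liver promoter (LAP) and no inducible YAP. The tetYAP 4W library was labelled LaptTA; tetYAP, from a mouse that also carried a mutant, constitutively active YAP under tetracycline control, after 4 weeks of induction by removal of doxycycline. Both mice thus carried the transactivator, and the transgene is driven only where that promoter is active.

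Each group held 1 library, so no difference below has a replicate check. All intervals are 95% intervals that cover counting error only. The control held 2989 barcodes with a median of 3117 UMIs, and the tetYAP 4W library 1524 barcodes with a median of 4150 UMIs. The libraries shared 0 barcode sequences. The mice also differed in sex-linked RNA: Xist had 3 UMIs in control and 4859 in tetYAP 4W barcodes, and 4 Y-linked genes had 716 and 0 UMIs. Transgene and sex therefore cannot be told apart for any member, including the X-linked Gpc3.

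Hepatoblasts, the bipotent progenitors of the fetal liver, give rise to hepatocytes and to cholangiocytes, the cells that line bile ducts. YAP, the effector of the Hippo pathway, acts through TEAD transcription factors and is known to favour the ductal over the hepatocyte fate when active in adult liver. Afp (a fetal serum protein), Gpc3 (a heparan sulfate proteoglycan), H19 (a long non-coding RNA), Igf2 (a growth factor) and Peg3 (a zinc finger protein) are high in fetal liver and largely silenced after birth. H19, Igf2 and Peg3 are imprinted, so that 1 parental copy is expressed. Spp1 (osteopontin, a secreted matrix protein) and Sox9 (a transcription factor) mark cholangiocytes. Mdk is a secreted growth factor, Cd24a a surface glycoprotein of progenitor and of many blood cells, and Sox4 a transcription factor that acts with Sox9 in bile duct development.

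The RefSeq promoter table (GRCm38.p6, the mm10 build) held 6 of the 10 members. Of these 6, the 4 printed below are those whose RNA differed most between the libraries or between hepatocyte-like barcodes. They are read 5′ to 3′ on the strand of the gene, outside its annotated extent. They lie at chr5:104434861-104435110 (plus strand) for Spp1, chrX:52613975-52614224 (minus) for Gpc3, chr7:6730463-6730669 (minus) for Peg3 and chr13:28953700-28953949 (minus) for Sox4. Capitals mark GGAATG, the core of the TEAD motif, searched on both strands (CATTCC on the other).
Spp1: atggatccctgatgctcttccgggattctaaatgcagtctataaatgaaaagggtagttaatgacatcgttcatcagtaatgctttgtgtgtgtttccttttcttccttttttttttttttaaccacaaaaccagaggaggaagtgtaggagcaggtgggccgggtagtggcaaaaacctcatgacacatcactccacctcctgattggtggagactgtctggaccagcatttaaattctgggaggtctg
Gpc3: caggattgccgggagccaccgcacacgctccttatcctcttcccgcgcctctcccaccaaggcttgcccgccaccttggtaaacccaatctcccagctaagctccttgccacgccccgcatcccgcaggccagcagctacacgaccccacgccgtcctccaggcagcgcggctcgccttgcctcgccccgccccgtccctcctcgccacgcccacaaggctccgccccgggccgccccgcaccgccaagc
Peg3: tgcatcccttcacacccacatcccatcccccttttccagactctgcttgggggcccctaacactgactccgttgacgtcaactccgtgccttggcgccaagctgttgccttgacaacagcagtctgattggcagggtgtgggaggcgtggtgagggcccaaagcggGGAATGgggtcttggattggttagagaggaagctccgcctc
Sox4: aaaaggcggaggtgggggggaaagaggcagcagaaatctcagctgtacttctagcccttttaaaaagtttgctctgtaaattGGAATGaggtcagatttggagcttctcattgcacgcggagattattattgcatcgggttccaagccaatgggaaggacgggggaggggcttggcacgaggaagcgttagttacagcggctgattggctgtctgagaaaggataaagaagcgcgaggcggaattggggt

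Peg3 held the motif 84 bases and Sox4 168 bases before the start site, while the Spp1 and Gpc3 windows held none. The Peg3 start site lies inside the annotated extent of the gene. Only 207 bases of its window are therefore printed, and the 84 bases run past their end. Of 32851 promoters of 250 bases, 12.6% held it. A match is a description of the letters only.

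Over all barcodes, Spp1, Gpc3, Sox4 and Cd24a stood out in the tetYAP 4W library. Spp1 had 44 control and 552 tetYAP 4W UMIs, 4.63 and 81.4 CPM (counts scaled to the library total), a log2 ratio of 4.14 (3.69 to 4.62). Gpc3 had 1 and 283 UMIs, and its log2 ratio was 7.05 with the control set to a floor of 3 UMIs, with an interval of the raw counts from 6.14 to 13.94. Sox4 had 14 and 170 UMIs, a log2 ratio of 4.09 (3.30 to 4.99). These 3 genes had few UMIs in the control although it was the larger library. Cd24a had 7 and 64 UMIs, a log2 ratio of 3.68 (2.56 to 5.05). Peg3 had 53 and 137 UMIs, a log2 ratio of 1.86 (1.39 to 2.34). Mdk had 4 and 14 UMIs, a log2 ratio of 2.30 (0.63 to 4.36). Sox9 went the other way, with 62 control and 11 tetYAP 4W UMIs, a log2 ratio of -2.01 (-3.08 to -1.07).

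Among the classical fetal transcripts, Afp had 1 and 8 UMIs, H19 had 0 and 3, and Igf2 had 0 in both. A count of 0 was set to the floor of 3 UMIs, so H19 and Igf2 cannot be ranked between the libraries at this depth. The 3 H19 UMIs lay in 2 classes other than hepatocytes, 2 in stellate or mesenchymal cell-like and 1 in endothelial cell-like barcodes. Of the 7 members with at least 10 UMIs, 6 were past 2-fold higher and 1 was past 2-fold lower. Of the 12621 genes with at least 10 UMIs, 38.3% were past 2-fold higher and 7.89% past 2-fold lower, and the median log2 ratio was 3.68 for the members and 0.60 for all these genes. With TMM scaling, these shares of all genes became 27.2% and 17.9%.

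The make-up of the libraries differed, so the members were next counted by cell class. Clusters were named from marker genes of classes other than hepatocytes, and those that met the rule for none were called hepatocyte-like. No member was used to form the clusters. Hepatocyte-like barcodes were 2720 (91.0%) of the control and 810 (53.1%) of the tetYAP 4W library. Mitochondrial genes took a median of 28.2% of their UMIs in control and 55.5% in tetYAP 4W barcodes. A control cluster of 113 barcodes stayed unnamed, and no cluster of cholangiocytes was found. The duct cytokeratins Krt19 and Krt7 had 0 control UMIs and 1 and 2 tetYAP 4W UMIs, and the surface marker Epcam had 0 and 1. Dlk1, a hepatoblast surface protein, had 0 in both. Each hepatocyte-like cluster came from 1 library, so a cluster and its library cannot be told apart.

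In hepatocyte-like barcodes, 5 members had at least 10 UMIs. Spp1 had 39 and 333 UMIs, a log2 ratio of 4.41 (3.93 to 4.93). Gpc3 had 1 and 178 UMIs, a log2 ratio of 7.21 against the floor, with a raw-count interval of 6.30 to 14.11. Sox4 had 8 and 73 UMIs, a log2 ratio of 4.51 (3.45 to 5.77). Peg3 had 47 and 111 UMIs, a log2 ratio of 2.56 (2.05 to 3.08). For these 4 genes the difference was also present when barcodes of other classes were left out. This does not leave out RNA of other cells. Hepatocyte-like barcodes held 3.89 macrophage marker UMIs each in tetYAP 4W and 0.0809 in control, and 2.38 and 0.257 endothelial ones. The part of such RNA in the ratios was not tested. Sox9 had 57 and 6 UMIs, a log2 ratio of -1.93 (-3.44 to -0.72), and without barcodes above 30% mitochondrial UMIs it had 35 and 2 UMIs, a raw-count log2 ratio of -0.37 (-3.47 to 1.59). That limit left 110 tetYAP 4W hepatocyte-like barcodes, in which the log2 ratio of Peg3 was 4.76 (4.11 to 5.45) and that of Sox4 7.08 (5.40 to 9.44). The tetYAP 4W hepatocyte-like clusters 14, 15 and 16 had median mitochondrial shares of 36.4%, 32.7% and 61.3%, so the limit can change their mix. Afp had 1 and 4 UMIs, Mdk 1 and 2, and Cd24a 1 and 0. Of the 10975 genes with at least 10 UMIs in these barcodes, 19.7% were past 2-fold higher and 13.9% past 2-fold lower, against 4 and 1 of the 5 members. With totals that left out mitochondrial and the 50 most abundant genes, the shares of all genes became 29.5% and 4.45%.

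RNA released from broken cells can enter any droplet, so each member was set beside the 216 tetYAP 4W barcodes of 3 blood classes (T or NK, B and erythroid cell-like), which should lack hepatocyte RNA. These classes carried hepatocyte marker UMIs close to those of the hepatocyte-like barcodes, at 293 per barcode in erythroid, 311 in B and 320 in T or NK cell-like against 385 in hepatocyte-like barcodes. Median depths were 3390 UMIs in erythroid and 4774 in T or NK cell-like barcodes, against 3981.5 in hepatocyte-like ones. Spp1 in the tetYAP 4W library had 0.411 UMIs per hepatocyte-like barcode (0.368 to 0.458) and 0.287 (0.220 to 0.368) in the 3 blood classes together. Its intervals barely parted, and no class lacked it: the range was 0.237 in erythroid to 0.411 in hepatocyte-like barcodes. Gpc3 had 0.220 (0.189 to 0.255) and 0.148 (0.101 to 0.209), with overlapping intervals. Barcodes of cells that should not make hepatocyte transcripts thus carried both genes, at lower point values than hepatocyte-like ones. Scaled to depth, Spp1 was at 97.7 CPM in hepatocyte-like, 64.6 in the 3 blood classes and 67.0 in endothelial cell-like barcodes. Gpc3 was at 52.2, 33.3 and 21.4 CPM.

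**Figure D1:**
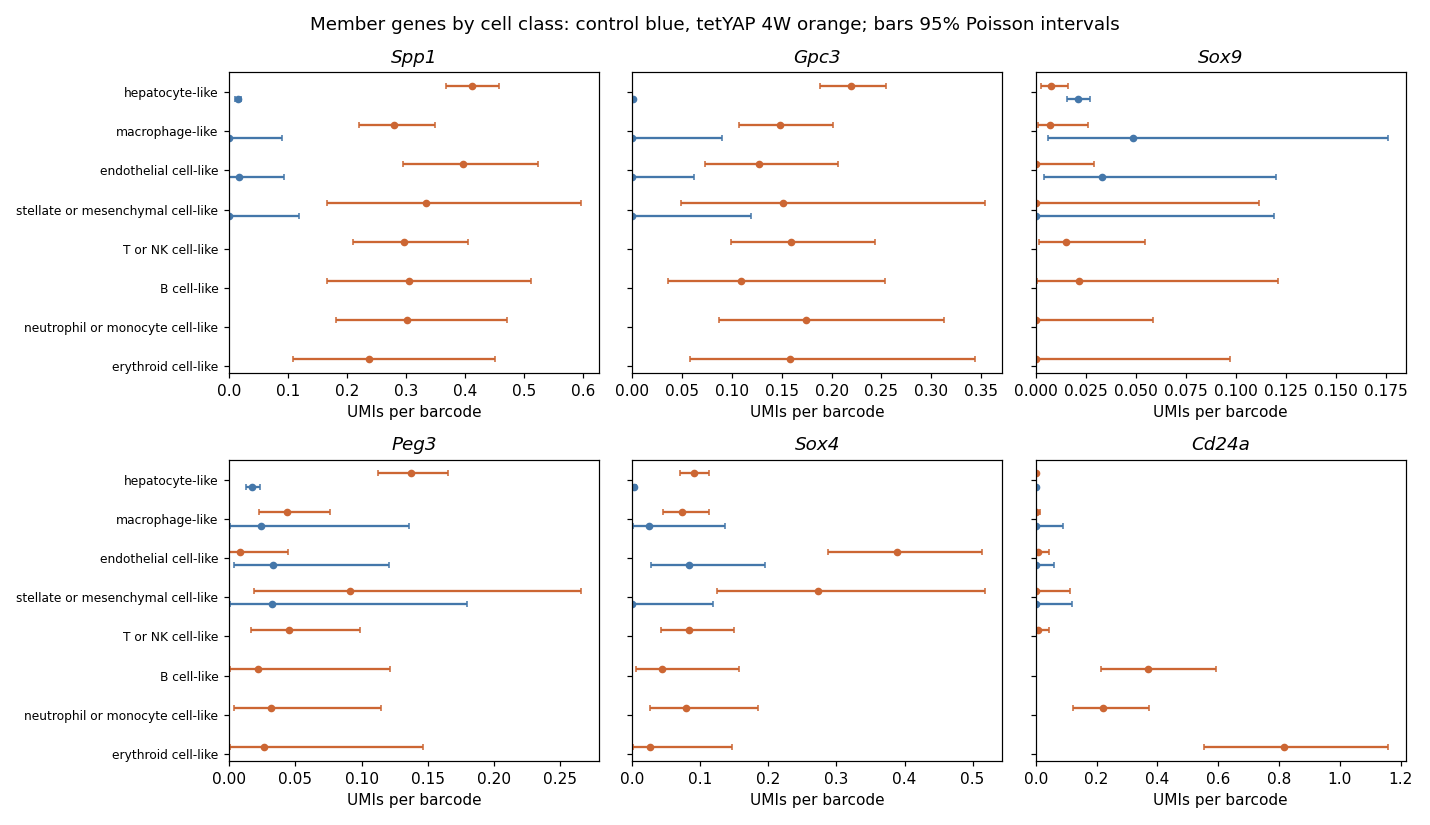
UMIs per barcode (x axis) of 6 genes by cell class (y axis), in the control (blue) and the tetYAP 4W library (orange), for classes of at least 20 barcodes, with 95% Poisson intervals. Spp1 and Gpc3 are found in all tetYAP 4W classes, with their highest point values in hepatocyte-like barcodes. The Spp1 intervals of hepatocyte-like and macrophage-like barcodes do not overlap. Peg3 is highest in hepatocyte-like, Sox4 in endothelial cell-like and Cd24a in erythroid cell-like barcodes.

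Gpc3 was next counted against Spp1 within each class. Gpc3 made up 34.8% of the UMIs of both genes in hepatocyte-like (30.7 to 39.1, Clopper-Pearson), 34.7% in macrophage-like (26.2 to 44.1) and 35.0% (23.1 to 48.4) in T or NK cell-like barcodes. It was 24.2% (14.5 to 36.4) in endothelial cell-like barcodes, and all class intervals overlapped that of hepatocyte-like barcodes. Prom1, the surface protein CD133 of progenitor and duct cells, had 0 UMIs in control and 131 in tetYAP 4W hepatocyte-like barcodes. With the control set to the floor of 3 UMIs this was 109-fold higher, a point value without counting error. Prom1 against Spp1 was 28.2% (24.2 to 32.6) in hepatocyte-like and 29.1% (17.6 to 42.9) in T or NK cell-like barcodes. Its level per barcode was 0.162 (0.135 to 0.192) in hepatocyte-like and 0.106 (0.0675 to 0.160) in the 3 blood classes. For Gpc3 and Prom1 the intervals thus overlapped across classes. Sox4 against Spp1 was 18.0% (14.4 to 22.1) in hepatocyte-like and 49.5% (39.3 to 59.7) in endothelial cell-like barcodes. Peg3 was 25% (21.0 to 29.3) and 1.96% (0.0496 to 10.4), with 13.5% (7.17 to 22.4) in macrophage-like and 13.3% (5.05 to 26.8) in T or NK cell-like barcodes. The hepatocyte-like value of Peg3 rested on 1 cluster, numbered 15, at 72.6% (63.4 to 80.5), while the other two hepatocyte-like clusters, 14 and 16, were at 11.6% (5.92 to 19.8) and 7.63% (4.58 to 11.8), inside the range of the other classes.

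**Figure D2:**
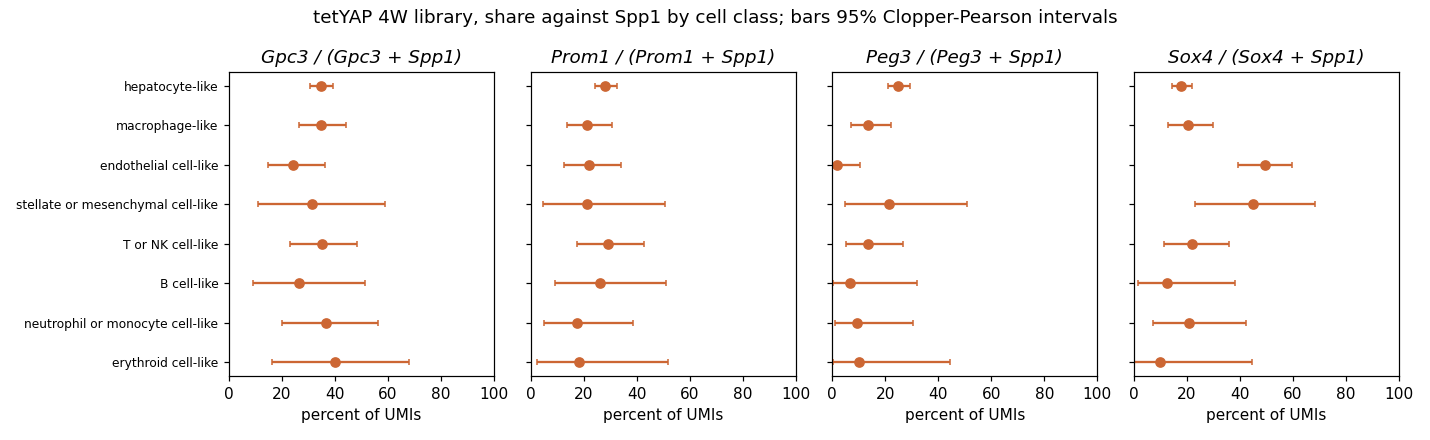
UMIs of Gpc3, Prom1, Peg3 and Sox4 as a percent of their sum with Spp1 (x axis) by cell class (y axis) in the tetYAP 4W library, with 95% Clopper-Pearson intervals. Gpc3 and Prom1 lie within overlapping intervals in all classes, while Peg3 is low and Sox4 high in endothelial cell-like barcodes.

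Sox4 was highest per barcode in cells other than hepatocytes. In the tetYAP 4W library endothelial cell-like barcodes held 0.389 UMIs each (0.288 to 0.514), stellate or mesenchymal cell-like ones 0.273, from 9 UMIs, and hepatocyte-like ones 0.0901 (0.0706 to 0.113). The 3 blood classes had 0.0648 (0.0354 to 0.109), which overlaps the hepatocyte-like value. In the control, endothelial cell-like barcodes had 5 UMIs in 60 barcodes and hepatocyte-like ones 8 in 2720. Most Cd24a UMIs lay in blood cell classes. It had 0.816 UMIs per erythroid cell-like barcode (0.554 to 1.16), 0.370 (0.215 to 0.592) in B cell-like and 0.222 (0.121 to 0.373) in neutrophil or monocyte cell-like barcodes. The last of these clusters also carried markers of plasmacytoid dendritic cells. Leaving out the erythroid barcode with most Cd24a, which held 7 UMIs, gave 0.649 (0.416 to 0.965). Cd24a was found in 0 of 810 hepatocyte-like barcodes. The Clopper-Pearson interval of this share reaches 0.454% of barcodes with a UMI, which is no limit on cells that express the gene. Mdk had 8 UMIs in macrophage-like, 4 in endothelial cell-like and 2 in hepatocyte-like barcodes of the tetYAP 4W library.

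Sox9 was sparse in every class. Control hepatocyte-like barcodes held 0.0210 UMIs each (0.0159 to 0.0272) and all others together 0.0186 (0.00604 to 0.0434). In the tetYAP 4W library it had 0.00741 (0.00272 to 0.0161) and 0.00700 (0.00227 to 0.0163). Hepatocyte-like barcodes were therefore not separable from other cells in either library. Peg3 in the tetYAP 4W library had 0.137 (0.113 to 0.165) in hepatocyte-like barcodes and 0.0370 (0.0160 to 0.0730) in the 3 blood classes. This gap rested on the 78 barcodes of cluster 15, since clusters 14 and 16 were at 0.0394 and 0.0397. Of its 137 UMIs, 81.0% (73.4 to 87.2) were found in hepatocyte-like barcodes, against 50.3% of the UMIs of all genes. For the median gene with at least 10 UMIs in this library the share was 32.1% (quartiles 22.4 to 43.5). The corresponding shares were 62.9% (57.0 to 68.5) for Gpc3, 60.3% (56.1 to 64.4) for Spp1, 42.9% (35.4 to 50.7) for Sox4 and 56.9% (54.1 to 59.7) for the members together.

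Peg3 was concentrated in 1 small cluster of each library. In the tetYAP 4W library, cluster 15 (78 barcodes) had 82 of the 111 hepatocyte-like Peg3 UMIs, 1.05 per barcode (0.836 to 1.30). Clusters 14 and 16 had 0.0394 (0.0197 to 0.0705) and 0.0397 (0.0235 to 0.0628). A Peg3 UMI was found in 26 of the 78 barcodes, and 1 barcode held 11. Without that barcode the level was 0.922 (0.720 to 1.16). In the control, cluster 6 (118 barcodes) held 23 of 47 UMIs, 0.195 per barcode (0.124 to 0.292), and the other control hepatocyte-like clusters 0.00605 to 0.0123. Among the hepatocyte-like clusters of their library, both were the richest in Malat1, a nuclear long non-coding RNA, with 56.6 and 14.2 UMIs per barcode. Sox4 shared the tetYAP 4W pattern, at 0.359 (0.239 to 0.519) in cluster 15 against 0.0573 (0.0328 to 0.0931) in cluster 14 and 0.0640 (0.0429 to 0.0919) in cluster 16. Control cluster 6 held 0 Sox4 UMIs.

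Spp1 and Gpc3 were not raised in cluster 15. Spp1 had 0.397 (0.270 to 0.564) there, 0.301 (0.240 to 0.373) in cluster 14 and 0.481 (0.419 to 0.550) in cluster 16. Gpc3 had 0.154 (0.0795 to 0.269), 0.190 (0.142 to 0.248) and 0.249 (0.206 to 0.300). Only in cluster 16, the largest, did the Spp1 interval lie above that of the 3 blood classes. The genes most raised in cluster 16 over the other tetYAP 4W barcodes included the pancreatic enzyme genes Pnlip, Prss2, Ctrb1, Cpa1 and Cela3b. The source of that RNA and its part in the Spp1 and Gpc3 levels were not tested. Endothelial marker UMIs were 5.75 per barcode in cluster 14, 0.5 in cluster 15 and 0.627 in cluster 16, and their part in these levels was not tested. The ratio of Peg3 between the libraries was 2.56 on the log2 scale over all hepatocyte-like barcodes, 1.67 (0.84 to 2.51) without clusters 6 and 15, and 2.05 (1.36 to 2.78) within them.

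**Figure D3:**
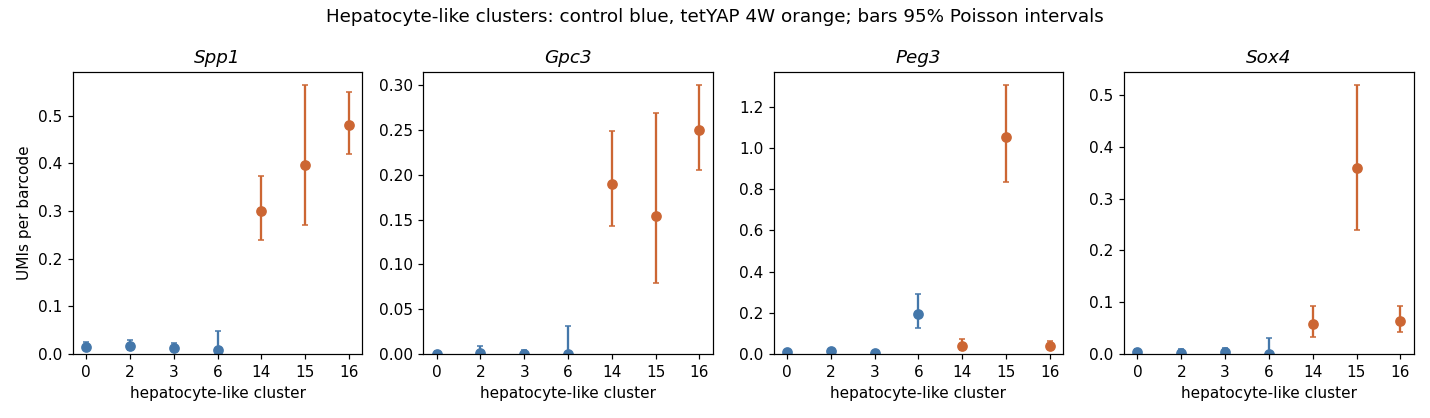
UMIs per barcode (y axis) of 4 genes in the hepatocyte-like clusters (x axis, cluster number) of the control (blue) and the tetYAP 4W library (orange), with 95% Poisson intervals. Peg3 and Sox4 peak in cluster 15 and Peg3 also in control cluster 6, whereas Spp1 and Gpc3 are highest in cluster 16.

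Hepatocyte-like barcodes of each library were then ordered by Malat1 UMIs per 10000 and cut into 3 groups of equal size. In the tetYAP 4W library the lowest, middle and highest groups (270 barcodes each) held 9, 10 and 92 Peg3 UMIs. The log2 ratio of the highest over the lowest was 3.62 (2.63 to 4.79), on totals without Malat1. Sox4 had 20, 13 and 40 UMIs, a log2 ratio of 1.26 (0.45 to 2.11), or 2.55 (0.80 to 4.93) without barcodes above 30% mitochondrial UMIs. Both genes were higher in the top group than in the other two. Spp1 had 120, 115 and 98 UMIs (-0.03, -0.43 to 0.37), and Gpc3 66, 56 and 56 (0.02, -0.52 to 0.56), so no difference with Malat1 was detectable for either at this depth. Of the 8326 genes with at least 10 UMIs in these groups, 43.3% were past 2-fold higher and 0.408% past 2-fold lower, against 2 and 0 of the 4 members tested. The count of Sox4 and Peg3 is thus close to the share of all genes. The highest group held 73 of the 78 barcodes of cluster 15. Its median mitochondrial share was 42.8%, against 59.6% in the lowest, and endothelial marker UMIs were 4.0 and 1.28 per barcode. Their part in the Peg3 and Sox4 differences was not tested.

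In the control the groups held 907, 906 and 907 barcodes. Peg3 had 10, 13 and 24 UMIs, a log2 ratio of 1.29 (0.17 to 2.52). Spp1 had 21, 9 and 9 UMIs, a log2 ratio of -1.19 (-2.50 to -0.0057). Sox9 had 17, 18 and 22 UMIs, a log2 ratio of 0.40 (-0.58 to 1.41). The control Peg3 ratio was 0.83 (-0.08 to 1.78) with 2 groups split at the median and 0.83 (-0.07 to 1.78) with 1 Malat1 limit for both libraries, intervals that include 0, and the Spp1 interval nearly reached 0. Of 9129 genes, 5.42% were past 2-fold higher and 1.77% past 2-fold lower. Median mitochondrial shares of the control groups were 27.7% to 29.3%.

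**Figure D4:**
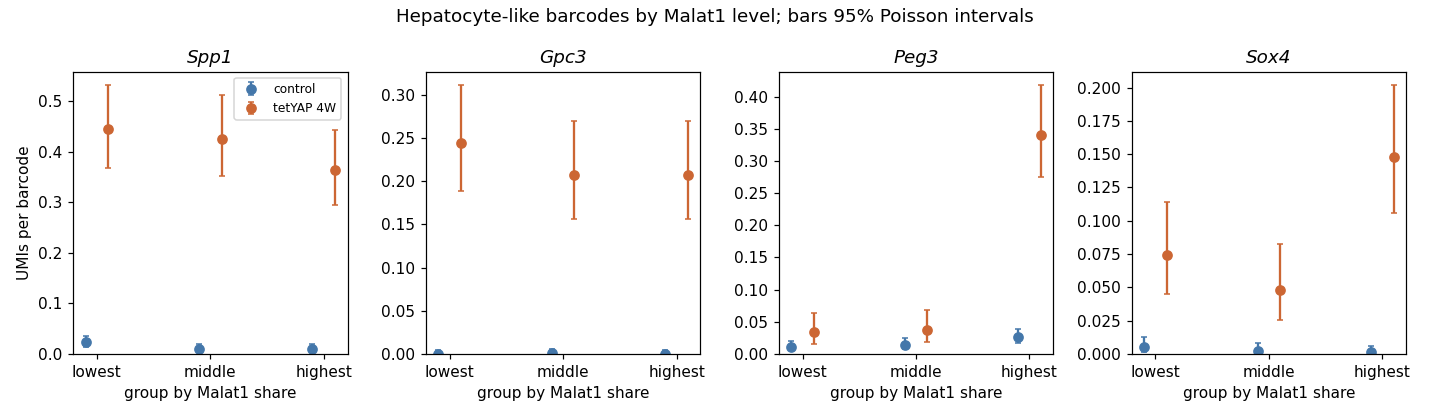
UMIs per barcode (y axis) of 4 genes in hepatocyte-like barcodes split into 3 groups by Malat1 share (x axis), in the control (blue) and the tetYAP 4W library (orange), with 95% Poisson intervals. Peg3 had 92 UMIs in the highest tetYAP 4W group against 9 in the lowest, whereas Spp1 and Gpc3 overlap in all 3 groups.

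Members were rarely seen together in a control barcode. At least 2 members had a UMI in 4 of 2720 control hepatocyte-like barcodes, 0.147% (0.0401 to 0.376), and in 89 of 810 tetYAP 4W ones, 11.0% (8.92 to 13.3). Spp1 and Gpc3 were together in 48 tetYAP 4W barcodes, where the product of their shares gives 45.4. Peg3 and Sox4 were together in 12 (6.20 to 21.0), where the product gives 3.53, and 10 of the 12 lay in the highest Malat1 group. With the tetYAP 4W library thinned to the control depth, the share with at least 2 members was 7.16%.

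The levels of each member over 13 class and library groups were compared with other genes, on log2 of CPM plus 10. These groups share libraries, so the correlations are descriptions. Spp1 was most like Sult2a1, Cyp2c40 and Sult2a2 (Pearson's r of 0.986, 0.985 and 0.982). Gpc3 was most like Nipal1, Sult2a6 and Cyp2c69 (0.993, 0.992 and 0.991). Sult2a and Cyp2c genes encode hepatocyte enzymes. A high r over these groups can reflect the difference between the libraries, sex included, as well as cell class. These were not separated. Cd24a was most like Hbb-bt, a globin, Bpgm, a red cell enzyme, and Hba-a2 (0.912, 0.841 and 0.829). Peg3 was most like the mitochondrial genes mt-Nd4, mt-Co3 and mt-Cytb (0.852, 0.840 and 0.839), Sox4 like Rab3gap2, Mfge8 and Stx5a (0.922, 0.913 and 0.912), and Sox9 like March6, Adi1 and Ide (0.907, 0.888 and 0.866). The likeness of Peg3 holds for whole classes only. Within tetYAP 4W hepatocyte-like barcodes, the Peg3-rich cluster 15 had a median mitochondrial share of 32.7%, against 61.3% in cluster 16.

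Other genes of the same programs were counted in hepatocyte-like barcodes, beside the same 19.7% and 13.9% of all genes. In a list of 15 hepatoblast and fetal liver genes, 6 had at least 10 UMIs, 5 past 2-fold higher and 0 lower. Vim, a mesenchymal intermediate filament, had 10 and 123 UMIs, a log2 ratio of 4.94, and Anxa2, a membrane-binding protein, 15 and 81 UMIs, a log2 ratio of 3.75. Both were higher per barcode in endothelial cell-like barcodes, at 1.77 and 1.01, than in hepatocyte-like ones, at 0.152 and 0.1. In a list of 19 ductal genes, 7 had at least 10 UMIs, 2 past 2-fold higher and 0 lower. Tm4sf4, a tetraspanin-like protein of liver and duct cells, had 223 and 327 UMIs, a log2 ratio of 1.87. Tbx3, a transcription factor of hepatoblasts, had 58 and 14 UMIs in the first list, a log2 ratio of -0.73 (-1.69 to 0.13). The keratins Krt8 and Krt18, which hepatocytes also make, had log2 ratios of 0.11 and 0.05.

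Of 21 imprinted genes, 10 had at least 10 UMIs, 6 past 2-fold higher and 1 lower. Kcnq1ot1, a nuclear long non-coding RNA, had 47 and 234 UMIs, a log2 ratio of 3.63. Like Peg3 it lay in cluster 15, with 189 UMIs there (2.42 per barcode, 2.09 to 2.79) against 0.0442 (0.0270 to 0.0682) in cluster 16. Mest, a hydrolase of fetal tissues, had 2 and 26 UMIs, with 0.579 UMIs per barcode in the endothelial cell-like class. Snrpn, a splicing protein, went the other way with 25 and 2 UMIs. Slc38a4, an amino acid transporter, and Gnas, a G protein subunit, had log2 ratios of -0.49 and -0.76.

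Receptors of the secreted members were counted last. Of 9 receptors of Spp1, 6 had at least 10 UMIs, 4 past 2-fold higher and 0 lower. Cd44 had 3 and 69 UMIs, a log2 ratio of 5.84 with an interval from 4.23, but it had 1.89 UMIs per macrophage-like barcode (1.73 to 2.06), 0.259 (0.196 to 0.337) in the 3 blood classes and 0.0852 (0.0663 to 0.108) in hepatocyte-like ones. The integrin subunit Itgb5 had 120 and 212 UMIs, a log2 ratio of 2.14, and at 0.262 per barcode (0.228 to 0.299) lay above the blood classes, at 0.130 (0.0861 to 0.187). Of the other integrin subunits, Itga9 had 14 and 50 UMIs, a log2 ratio of 3.15, and Itga5 had 50 and 56, a log2 ratio of 1.48. Itgav and Itgb1 had log2 ratios of 0.39 and 0.71. Of 9 receptors of Mdk, 7 had at least 10 UMIs, 3 past 2-fold higher and 1 lower. Sdc3 had 19 and 159 UMIs, and 4.91 per macrophage-like barcode against 0.196 per hepatocyte-like one. Sdc4, a hepatocyte syndecan, had 1635 and 302 UMIs, a log2 ratio of -1.12. The integrin subunit Itga6 had 8 and 40 UMIs, a log2 ratio of 3.64, and the endocytic receptor Lrp1 had 736 and 707, a log2 ratio of 1.26. The syndecans Sdc2 and Sdc1 had log2 ratios of 0.38 and 0.82. Igf2r, which clears Igf2, had 66 and 85 UMIs, a log2 ratio of 1.68, while the insulin receptor Insr had a log2 ratio of 0.75.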

How the data were processed

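The authors deposited raw counts, whole UMIs per gene and barcode, made with Cell Ranger and Seurat 3 on mm10 per the labels. Per the study's methods, barcodes above 7500 UMIs were excluded and conditions down-sampled to 3000 barcodes. The table held 2989 and 1524 barcodes, 0 of them above that limit, and all were used. Groups came from the genotype labels.

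Counts were clustered with scanpy 1.11.5 (2000 variable genes, 20 principal components, 15 neighbours, Leiden resolution 0.8), leaving out 88 genes, the members among them. A class other than hepatocyte-like needed 3 markers with at least 10 UMIs and 3-fold enrichment over the other barcodes of its library. Clusters that reached this for no such class were called hepatocyte-like, without a test of hepatocyte markers. Scrublet marked 0.100% and 0.131% of barcodes, and none were removed for it, so doublets may remain. Sums carry exact Poisson, shares Clopper-Pearson and log2 ratios exact conditional binomial intervals, with counts under 3 set to 3. On simulated counts, 94% of 200 changed genes lay in their interval for hepatocyte-like barcodes (10975 genes) and 97% for all barcodes (12621 genes). The simulated counts were Poisson, the model that the intervals assume, and the changed genes were drawn from well counted ones. The check therefore covers the calculation only, not UMIs clumped in few barcodes or genes with few UMIs. TMM factors came from edgeR 4.0.16 and were used as a normalization only.

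The members and lists were chosen with earlier results of these data known. Named were all members, 6 fixed companions, and per list up to 4 genes past 2-fold with at least 20 UMIs and up to 2 others of largest count. Of the listed genes, 1 was not in the table, and 1 companion is not reported here. Coordinates are RefSeq's on GRCm38.p6. Results were recomputed under 16 other settings, and 4 more were chosen after seeing the data.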

Additional observations from a re-analysis of the deposited data

How the results depend on the processing

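No paired analysis was possible because each group held 1 library, and no replicate could be left out. Values of single members, 229 in number, were taken under the 16 listed settings and 4 added after seeing the data. Of these, 215 stayed within the interval of the main value, 13 lay outside it and 1 was counted as changing sign. Such a change was counted only where the main value was at least 2-fold in either direction. Sox9 in hepatocyte-like barcodes was the value so counted, at 0.22 without barcodes above 30% mitochondrial UMIs. Its 2 tetYAP 4W UMIs were there set to the floor of 3, and the raw counts gave -0.37, so the sign rests on the floor. That limit also moved Peg3 to 4.76 and Sox4 to 7.08 in hepatocyte-like barcodes and Sox4 with Malat1 to 2.55, left 0 members past 2-fold lower in hepatocyte-like barcodes, put 31.8% of member UMIs in them, and gave 14.5% of barcodes with at least 2 members. It leaves fewer tetYAP 4W hepatocyte-like barcodes by construction and can change the mix of their clusters. That last share was 7.16% with the tetYAP 4W library thinned to the control depth and 3.86% in the expectation for barcodes thinned to 2000 UMIs. In clusters 6 and 15 alone, the median log2 ratio of members was 2.82 and 0 members were past 2-fold lower. At resolution 0.4, 51.7% of member UMIs lay in hepatocyte-like barcodes. Only 1 member stayed past 2-fold higher with Malat1 in the tetYAP 4W library when 2 groups split at the median, Malat1 per non-mitochondrial UMIs, 1 limit for both libraries, or totals without mitochondrial genes were used. Apart from the floor for Sox9, the cause was not tested for any of these. TMM scaling moved the median log2 ratio of all genes from 0.60 to 0.06 over all barcodes, with Spp1 at 3.60 and Peg3 at 1.32. H19, Igf2 and Afp are limited by depth.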

Other observations

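Notch signalling, a cell contact pathway that directs hepatoblasts to the bile duct fate, was counted in the same hepatocyte-like barcodes. Of 14 listed genes, 9 had at least 10 UMIs, 4 past 2-fold higher and 0 lower, against 19.7% and 13.9% of all genes tested, with a median log2 ratio of 0.90 against -0.08 for all these genes. The receptor Notch1 had 38 control and 83 tetYAP 4W UMIs, a log2 ratio of 2.44, and the ligand Jag1 had 21 and 57, a log2 ratio of 2.76. Endothelial cell-like barcodes held 0.968 Notch1 UMIs each (0.804 to 1.16) and hepatocyte-like ones 0.102 (0.0816 to 0.127), which overlapped the 0.0880 (0.0530 to 0.137) of the blood classes (T or NK, B and erythroid cell-like). Jag1 was at 0.0704 (0.0533 to 0.0912) in hepatocyte-like barcodes and 0.0231 (0.00752 to 0.0540) in these blood classes, and reached 0.192 (0.108 to 0.317) in cluster 15. The receptor Notch2 and the target gene Hes1 had log2 ratios of 0.90 and 0.35.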
